A study of Mus musculus with 10 samples.

Results

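The 8 genes described here are those of glutathione synthesis and recycling and of the transcription factor NRF2: Gclc, Gclm, Gss, Gsr, Slc7a11, Ggt1, Nfe2l2 and Keap1. They were chosen by name for their roles, and each matched 1 gene identifier among the 42989 genes of the deposited table. Libraries of total RNA, with ribosomal RNA removed, came from the distal ileum of 10 wild-type (WT) male C57BL/6J mice with diet-induced obesity (DIO). From 10 weeks of age, 5 mice received TDCA (taurodeoxycholic acid, a secondary bile acid carrying taurine) by oral gavage at 10 mg per kg body weight for 4 weeks. The other 5 received an equivalent volume of water by gavage for 4 weeks, so every mouse shared the strain, the obesity and the gavage. Mice are called TDCA 1 to TDCA 5 and water 1 to water 5, and the design lists them as biological replicates.

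Glutathione is a tripeptide of glutamate, cysteine and glycine, and it is the main small thiol that protects cells from peroxides and reactive compounds. Glutamate-cysteine ligase joins the first pair of amino acids, glutathione synthetase adds glycine, and glutathione reductase returns the oxidized form to the reduced one with NADPH. NRF2 is held low by KEAP1, which directs it to degradation, and reactive compounds release it to act on genes of glutathione synthesis and detoxification. The epithelium of the small intestine meets bile acids and dietary compounds, and its surface enzymes split glutathione so that the amino acids can be taken up.

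The libraries held 27349003 to 44342245 reads on genes. All 16 ileal enterocyte markers, among them the bile acid genes Fabp6 and Slc10a2, had reads in every library, as the tissue label states. Counts given below are the authors' normalized counts, that is, reads divided by a size factor per library. Differences are log2(normalized count + 1) in TDCA mice minus the same in water mice, tested by limma over 17507 genes, with p-values adjusted by the Benjamini-Hochberg method over all of them. Water 1 and TDCA 5 lay at the opposite ends of the first principal component, which held 28.5% of the variance, so counts are given with them and with both left out.

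Across the 8 genes, 7 had a log2 fold change below 0, that is, a lower level in TDCA mice, and that of Slc7a11 was near 0. The median log2 fold change was -0.40, against -0.01 over all genes tested. None of the 8 passed an adjusted p of 0.05 in limma, in which the share of all genes called was 0%, and the smallest adjusted p of any gene was 0.448. At an unadjusted p under 0.05, 2 of the 8 (Gsr and Gss) were lower and 0 higher, where 5.01% of all genes tested were lower. The edgeR quasi-likelihood test and DESeq2 each gave 4 of 8 lower at that level, where 4.66% of all genes were lower with edgeR and 2.31% with DESeq2. The DESeq2 share is over unfiltered genes, scarce ones included, so it is not on the same footing as the others. Among genes with an adjusted p in the authors' deposited DESeq2 table, 6.04% were lower at that level. After adjustment edgeR called 0 genes and DESeq2 25, with 0 of the 8 among them. No member separated the groups without overlap, a pattern that 1.40% of all genes tested showed. In bulk tissue, fewer cells of a type and less RNA per cell cannot be told apart, which applies to every level given here.

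**Figure D1:**
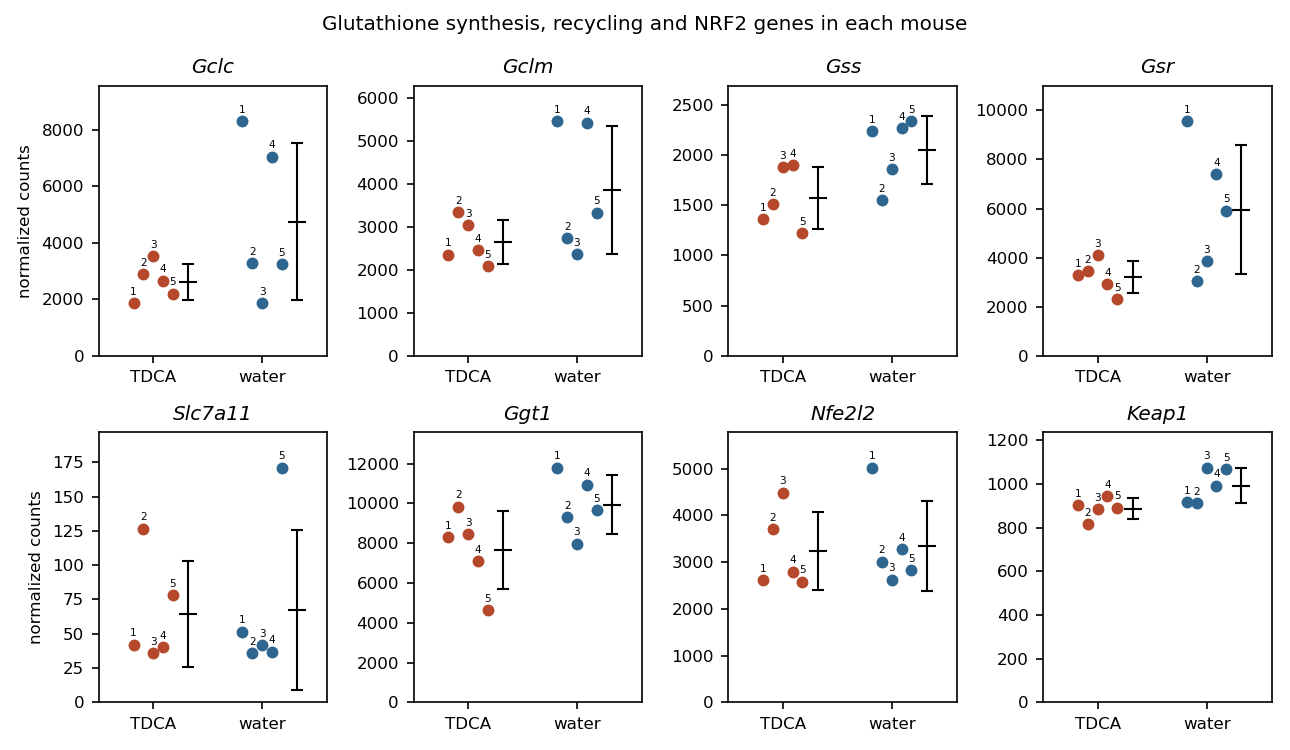
Normalized counts (vertical axis, from 0, a different scale for each gene) of the 8 genes in each mouse, numbered 1 to 5 within TDCA (left, red) and water (right, blue); horizontal marks and bars give the mean ± SD, n = 5. Water 1 and water 4 stand above the other mice for Gclc, Gclm and Gsr, Slc7a11 is highest in water 5 and TDCA 2, and the groups overlap for all 8 genes.

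Gclc (ENSMUSG00000032350) encodes the catalytic subunit of glutamate-cysteine ligase, the rate-limiting enzyme of glutathione synthesis. It had 1873, 2903, 3523, 2660 and 2201 normalized counts in TDCA 1 to 5, against 8306, 3279, 1867, 7046 and 3253 in water 1 to 5. Water 1 and water 4 were far above the other 8 mice, water 3 was the lowest of all 10, and the remaining values overlapped. The means were 2632 ± 638 in TDCA mice and 4750 ± 2767 in water mice (SD, n = 5 each). TDCA minus water gave a log2 fold change of -0.68 (SE 0.37, 95% interval -1.49 to 0.13), with a limma adjusted p of 0.514.

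Gclm (ENSMUSG00000028124) encodes the modifier subunit, which lowers the enzyme's need for glutamate and its inhibition by glutathione. Its level was 2356, 3346, 3034, 2457 and 2088 normalized counts in TDCA 1 to 5, against 5461, 2736, 2360, 5424 and 3329 in water 1 to 5. The same 2 water mice were high, and the other 3 water mice lay within the range of the TDCA mice. The means were 2656 ± 517 in TDCA mice and 3862 ± 1484 in water mice (SD, n = 5 each). On log2 levels the fold change was -0.47 (SE 0.24, 95% interval -0.999 to 0.05, limma adjusted p = 0.486). Per kilobase of its longest coding transcript, Gclc was the more abundant of the pair, at 769 normalized counts in TDCA mice and 1388 in water mice, against 475 and 691 for Gclm. In TDCA mice the mean counts themselves were alike, so the order there rests on the lengths taken, 3423 bases for Gclc and 5589 for Gclm. The ratio of Gclc to Gclm per kilobase was 1.62 ± 0.25 in TDCA mice and 1.89 ± 0.46 in water mice (SD, n = 5 each), a difference within the spread.

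NRF2 acts through the antioxidant response element, whose core was searched as TGACNNNGC on both strands of RefSeq promoter windows that run from 250 bases before to 50 after a start site (GRCm38.p6). Of 32851 windows, 12.4% held at least 1 match, and 6 of the 8 genes had a window, Gclc and Gsr being the others. In the Gclm window the match lay on the reverse strand, at position -134 from the start. It is shown with its surroundings at chr3:122245397-122245456 on the plus strand, with the match in capitals, because Gclm is the synthesis gene whose level followed Gclc most closely.
Gclm: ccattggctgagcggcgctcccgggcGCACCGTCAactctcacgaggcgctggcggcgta

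Gss (ENSMUSG00000027610) encodes glutathione synthetase, the second enzyme of synthesis. The TDCA mice had 1363, 1508, 1879, 1897 and 1219 normalized counts, against 2240, 1547, 1856, 2267 and 2336 in water 1 to 5. TDCA 1, 2 and 5 were below the lowest water mouse, and TDCA 3 and 4 lay among the water values. Unlike Gclc and Gclm, Gss had no mouse far from its group. Its log2 fold change of -0.39 (SE 0.16, 95% interval -0.72 to -0.05) had an unadjusted p of 0.0284 and an adjusted p of 0.448 in limma. The difference in mean log2 levels gave an unadjusted two-sided exact permutation p of 0.0635. Its RefSeq window held no match to the element's core.

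Gsr (ENSMUSG00000031584) encodes glutathione reductase and had the largest difference of the 8 genes. It reached 3281, 3454, 4106, 2908 and 2319 normalized counts in TDCA 1 to 5, against 9555, 3044, 3868, 7411 and 5907 in water 1 to 5. Water 1, 4 and 5 were above every TDCA mouse, while water 2 and 3 lay within the TDCA range. The means were 3214 ± 662 in TDCA mice and 5957 ± 2642 in water mice (SD, n = 5 each). The mean log2 levels differed by a log2 fold change of -0.79 (SE 0.28, 95% interval -1.42 to -0.17), a ratio of 0.577 on that scale. It is not the ratio of the means above, since high single mice weigh less in log2 levels. In limma the unadjusted p was 0.0166 and the adjusted p 0.448. The ratio of Gsr to Gss per kilobase was 1.52 ± 0.26 in TDCA mice and 2.07 ± 0.70 in water mice (SD, n = 5 each).

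In the authors' deposited table, Gsr had a log2 fold change of -0.89 with an unadjusted p of 0.00144 and an adjusted p of 0.173, the smallest adjusted p of the 8 genes. The authors' deposited table gave Gclc -0.85 (unadjusted p = 0.0126), Gss -0.38 (unadjusted p = 0.0259) and Gclm -0.54 (unadjusted p = 0.0298). These fold changes are those before shrinkage. After shrinkage the table gave -0.17 for Gsr, -0.09 for Gclc, -0.11 for Gss and -0.09 for Gclm. These 4 genes were under an unadjusted p of 0.05 there, where 6.04% of the 13800 genes with an adjusted p were lower at that level, or 2.31% of all 42949 with a p. The 25 genes called in the authors' deposited table, 0.181% of those 13800, held 0 of the 8. The DESeq2 result on recovered reads given earlier had the same fold changes and p-values for the 8 genes as this table. It repeats the authors' test and is not a separate result.

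Slc7a11 (ENSMUSG00000027737) encodes the light chain of the cystine-glutamate exchanger, which brings in cystine for glutathione synthesis. It was the lowest of the 8 genes, with 42.0, 127, 35.8, 40.3 and 78.1 normalized counts in TDCA 1 to 5, against 51.7, 35.9, 41.9, 37.0 and 171 in water 1 to 5. These values rest on 31 to 197 reads per library. Water 5, TDCA 2 and TDCA 5 were high and the other 7 mice lay between 35.8 and 51.7, so the high mice fell in both groups. The log2 fold change was 0.05 with a 95% interval of -0.96 to 1.07 (SE 0.46), which leaves the direction unknown, and it was below 0 under 11 of 23 alternatives. Per kilobase of its longest transcript it averaged 6.997 normalized counts in TDCA mice and 7.32 in water mice, a level that depends on which transcript the reads come from.

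Slc7a11 is also a target of ATF4, the factor of the amino acid response, whose element was searched as TGATGCAA on both strands. Of the 32851 RefSeq windows, 0.895% held a match, and 2 windows, that of Slc7a11 among them, held at least 2 copies. The copies lie at position -66 from the start on the gene's strand and at -47 on the other strand. The stretch at chr3:50443614-50443723 (GRCm38.p6, minus strand) is shown with both in capitals, because no window of the other 5 genes searched held this element.
Slc7a11: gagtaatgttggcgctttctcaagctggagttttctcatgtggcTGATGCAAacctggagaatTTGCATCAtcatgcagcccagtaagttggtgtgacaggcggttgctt

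Of 20 ATF4 target genes tested, 1 was lower (Cth) and 0 were higher at an unadjusted p under 0.05, near the 5.01% lower and 5.95% higher over all genes, with a median log2 fold change of -0.07. Atf4 itself averaged 2260 ± 249 normalized counts in TDCA mice and 2328 ± 217 in water mice (SD, n = 5 each; log2 fold change -0.04, SE 0.11). Slc3a2, the heavy chain that carries Slc7a11 to the membrane, was far more abundant than Slc7a11. It averaged 2294 ± 722 normalized counts in TDCA mice and 2811 ± 705 in water mice (SD, n = 5 each; log2 fold change -0.33, SE 0.24). Its lowest value, 1176, was in TDCA 5 and its highest, 3996, in water 1.

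Ggt1 (ENSMUSG00000006345) encodes gamma-glutamyltransferase, which cleaves glutathione at the cell surface so that its amino acids can be taken up again. It was the most abundant of the 8 genes per kilobase, at 3537 ± 903 normalized counts in TDCA mice and 4586 ± 682 in water mice (SD, n = 5 each). By mouse it had 8310, 9834, 8459, 7098 and 4625 normalized counts in TDCA 1 to 5, against 11793, 9323, 7980, 10937 and 9651 in water 1 to 5. TDCA 5 was the lowest by far, and TDCA 1, 2 and 3 lay among the water mice. TDCA 5 also had the lowest summed enterocyte markers, 580359 against 1047888 to 1472115 in water mice. In limma the log2 fold change was -0.41 (SE 0.19, 95% interval -0.83 to 0.01; limma adjusted p = 0.467), and it was -0.17 without both water 1 and TDCA 5. The part of enterocyte content in the difference was not tested.

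Ggt1 has 4 RefSeq windows, one for each of several start sites, and 3 of them held the core of the antioxidant response element. The 2 matches before a start site are shown, at chr10:75568602-75568661 and chr10:75571450-75571509 (GRCm38.p6, plus strand), with the match in capitals, because the gene has more than 1 promoter and the reads per gene do not tell them apart.
Ggt1, earlier start: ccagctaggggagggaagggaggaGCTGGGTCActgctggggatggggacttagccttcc
Ggt1, later start: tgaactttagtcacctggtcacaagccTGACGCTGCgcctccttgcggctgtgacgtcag

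Nfe2l2 (ENSMUSG00000015839), which encodes NRF2, had 2608, 3706, 4487, 2794 and 2581 normalized counts in TDCA 1 to 5, against 5020, 3013, 2627, 3284 and 2823 in water 1 to 5. Water 1 was highest, followed by TDCA 3 and TDCA 2, and the other values of both groups were mixed. The means were 3235 ± 837 in TDCA mice and 3353 ± 963 in water mice (SD, n = 5 each), with a log2 fold change of -0.05 (SE 0.20, 95% interval -0.48 to 0.39). The direction was the opposite under 6 of 24 alternatives. NRF2 activity is set largely by the stability of the protein, which RNA levels do not measure.

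The Nfe2l2 window held 1 match to the element's core, at position -240 from the start on the gene's strand. It is shown at chr2:75704854-75704913 (GRCm38.p6, minus strand), with the match in capitals, because NRF2 is known to act on its own gene.
Nfe2l2: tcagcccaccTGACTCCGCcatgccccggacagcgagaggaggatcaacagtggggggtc

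Keap1 (ENSMUSG00000003308) had the narrowest spread of the 8 genes, with coefficients of variation of 5.22% in TDCA mice and 7.89% in water mice. It had 902, 815, 887, 943 and 892 normalized counts in TDCA 1 to 5, against 917, 914, 1075, 993 and 1068 in water 1 to 5. All TDCA mice except TDCA 4 were below the lowest water mouse. The means were 888 ± 46.3 in TDCA mice and 993 ± 78.4 in water mice (SD, n = 5 each). The log2 fold change was -0.16 (SE 0.09, 95% interval -0.35 to 0.03), with an unadjusted p of 0.0974 and an adjusted p of 0.518 in limma. The difference in mean log2 levels had an unadjusted two-sided exact permutation p of 0.0397. The same exact permutation test gave p-values of 0.0635 for Gss and Gsr, 0.0794 for Ggt1, 0.151 for Gclm and 0.183 for Gclc. For Nfe2l2 and Slc7a11 this test gave 0.817 and 0.913. The ratio of Nfe2l2 to Keap1 per kilobase was 5.36 ± 1.53 in TDCA mice and 5.01 ± 1.76 in water mice (SD, n = 5 each).

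Levels per kilobase depend on which transcripts the reads come from, which was not tested. Per kilobase, the order of the mean levels in TDCA mice was Ggt1, Nfe2l2, Gsr, Gss, Gclc, Gclm, Keap1 and Slc7a11. In water mice the means of Gsr (2229 ± 988) and Gclc (1388 ± 808) stood above that of Nfe2l2 (1355 ± 389), and Gss (1044 ± 172) followed (SD, n = 5). Gclc and Nfe2l2 did not differ beyond their spread in water mice, and water 1 and water 4 raised the Gclc mean. Nfe2l2 (1307 ± 338) and Gsr (1202 ± 248) in TDCA mice did not differ beyond their spread (SD, n = 5), nor did Gss (801 ± 155) and Gclc (769 ± 186). Coefficients of variation were smaller in TDCA mice than in water mice for 6 of the 8 genes, most for Gclc, at 24.3% in TDCA mice and 58.3% in water mice. Gss and Ggt1 were the exceptions.

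Several of the genes varied together from mouse to mouse. Over 36 pairs, 28 among the 8 genes and 8 with the NRF2 target Nqo1, Pearson's r of log2 levels over 10 mice passed an adjusted permutation p of 0.05 for 8 pairs, all positive. The closest pair was Gclc and Gclm, with r = 0.95 (adjusted permutation p = 0.0070) and Spearman's rho = 0.84 (adjusted permutation p = 0.0310), and r = 0.93 after centring each group on its mean. Without water 1 and water 4, the 2 mice farthest from the median of Gclc, r was 0.77 (adjusted permutation p = 0.239, n = 8). The call was thus lost without those mice, but leaving them out also narrows the range and leaves fewer mice to test. Gsr followed Gclm (r = 0.91, rho = 0.81) and Gss (r = 0.84, rho = 0.73), with adjusted permutation p-values for r of 0.0070 and 0.0227. Without water 1 and water 4, r of Gsr with Gclm was 0.71 (adjusted permutation p = 0.239, n = 8). For Gss with Gsr the mice left out were TDCA 1 and TDCA 5, farthest from the median of Gss. There r was 0.81 (adjusted permutation p = 0.194, n = 8), with water 1 and water 4, both high for Gsr, still included.

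After centring on group means, 5 pairs passed, including Nfe2l2 with Gclc (r = 0.80) and with Gclm (r = 0.77), and without the 2 mice farthest from the median 0 pairs passed. Before centring, Nfe2l2 with Gclc gave r = 0.73 with an adjusted permutation p of 0.0688 and rho = 0.85 with an adjusted permutation p of 0.0310. Keap1 and Slc7a11 were in no pair that passed. For Slc7a11, r with the other 7 genes and Nqo1 lay between -0.11 and 0.041. The mice share depth, tissue makeup and handling, which these correlations do not separate.

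**Figure D2:**
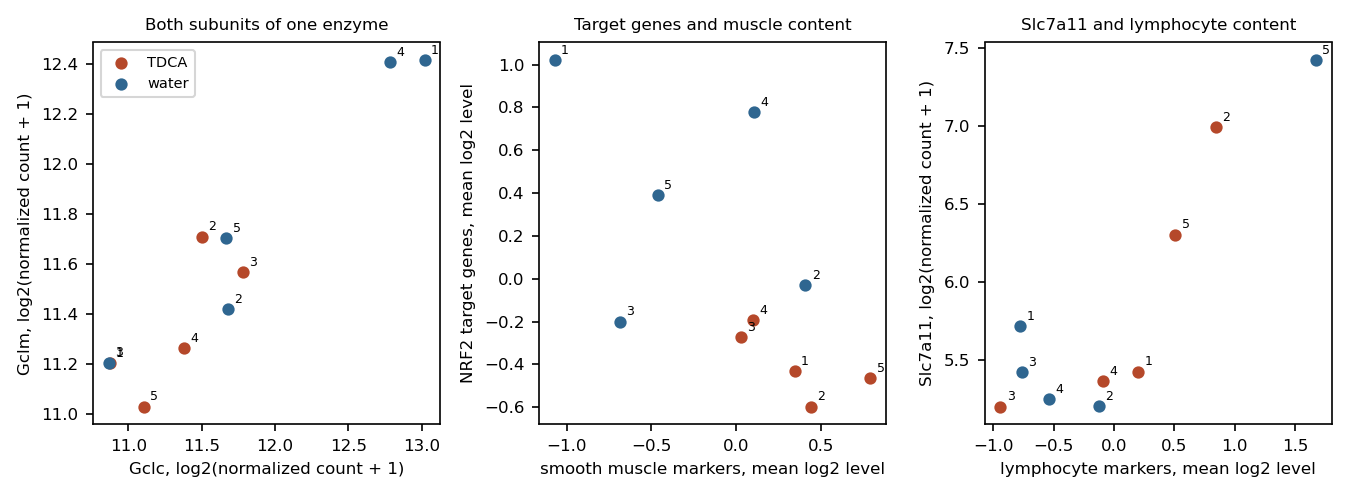
Left, Gclm against Gclc, both as log2(normalized count + 1); middle, the mean relative log2 level of the NRF2 target list against that of the smooth muscle markers; right, Slc7a11, as log2(normalized count + 1), against the mean relative log2 level of the lymphocyte markers. Each point is a mouse (TDCA red, water blue, numbered), TDCA 1 lies under water 3 at the lower left of the Gclm plot, and water 1 and water 4 are apart at its upper right.

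For each gene, the 2 genes most like it were those with the highest Pearson's r of log2 levels over the 10 libraries, among the 12164 genes that averaged 50 or more normalized counts. For Gclc they were the aldo-keto reductases Akr1c13 (r = 0.983) and Akr1c19 (r = 0.978). Those most like Gsr were Txnrd1 (r = 0.988), which encodes thioredoxin reductase, and Cript (r = 0.973). For Gclm they were Sord (r = 0.972), the sorbitol dehydrogenase gene, and Bet1 (r = 0.960). Ggt1 was most like the aminoacylase gene Acy3 (r = 0.979) and Slc35a5 (r = 0.963).

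Slc7a11 stood nearest to 2 genes of B cells, Pou2af1 (r = 0.960), a B cell coactivator, and the immunoglobulin gene Ighg2b (r = 0.951). The lymphocyte markers, as a mean log2 level relative to all mice, were highest in water 5 (1.67), TDCA 2 (0.84) and TDCA 5 (0.51), the 3 mice in which Slc7a11 was highest. Over the whole lymphocyte list, 0 of 10 markers differed at an unadjusted p under 0.05, where 11% of all genes did, and their summed levels were 4496 to 12162 in TDCA mice and 4147 to 10693 in water mice. The part of lymphocyte content in the Slc7a11 level was not tested. For Gss the nearest were Clp1 (r = 0.950) and Lrrc75a (r = 0.942), for Nfe2l2 Hmgn5 (r = 0.973) and Slc25a32 (r = 0.971), and for Keap1 Ppp1r14d (r = 0.947) and Ddx54 (r = 0.930).

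The wider set of NRF2 target genes, taken without the 8 genes and known from other tissues, had lower mean levels in TDCA mice for most members. Like the other lists, it was chosen with earlier results of these data known. Its counts are therefore a description and not independent support. Of 33 tested, 29 had a log2 fold change below 0, as did 52.1% of all genes tested, 24 were lower at an unadjusted p under 0.05, where 5.01% of all genes were, and 0 were higher. The median log2 fold change was -0.62, and 0 of 33 passed the adjusted p in limma. For 4 genes, Tkt, Cbr1, G6pdx and Prdx1, every TDCA mouse was below every water mouse, a pattern shown by 0.823% of all genes. Aldh3a1 and Gsta2 were below the filter. In the authors' deposited table, 4 genes of the list passed an adjusted p of 0.05, as did 0.181% of the 13800 genes with an adjusted p. All 4 were lower: Gstm3 (adjusted p = 0.00363), Cbr1 (0.00630), Nqo1 (0.00630) and Tkt (0.0109).

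Nqo1, which encodes a quinone reductase and is a standard readout of NRF2, had 305, 152, 287, 440 and 295 normalized counts in TDCA 1 to 5, against 1574, 456, 429, 1215 and 944 in water 1 to 5. The groups overlapped by a single crossing, TDCA 4 above water 3. The log2 fold change was -1.53 (SE 0.39; limma adjusted p = 0.448). Cbr1, which encodes a carbonyl reductase, had 2043, 1816, 2897, 3163 and 1648 normalized counts in TDCA 1 to 5, against 10142, 3449, 3497, 7192 and 5922 in water 1 to 5. All 5 TDCA mice were below all 5 water mice, and the log2 fold change was -1.31 (SE 0.30; limma adjusted p = 0.448).

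The largest difference of the list was that of Gstm3, a glutathione transferase gene, of the family that couples glutathione to reactive compounds. It had a log2 fold change of -3.24, followed by -2.36 for the carbonyl reductase gene Cbr3 and -2.10 for the transferase gene Gsta1. Gstm3 averaged 42.3 ± 10.8 normalized counts in TDCA mice and 933 ± 1204 in water mice, and Gsta1 109 ± 52.4 in TDCA mice and 699.8 ± 751 in water mice (SD, n = 5 each). The water SD was above the water mean for both. Transferase genes have close copies, and the sources used here do not say how reads shared between them were counted. Hmox1, the heme oxygenase gene and another NRF2 target, averaged 38.7 ± 11.8 in TDCA mice and 31.7 ± 4.86 in water mice (SD, n = 5 each), a log2 fold change of 0.23 (SE 0.25). RefSeq windows were found for 30 genes of the list, and 11 of their 41 windows (26.8%) held the element's core, against 12.4% of all windows.

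**Figure D3:**
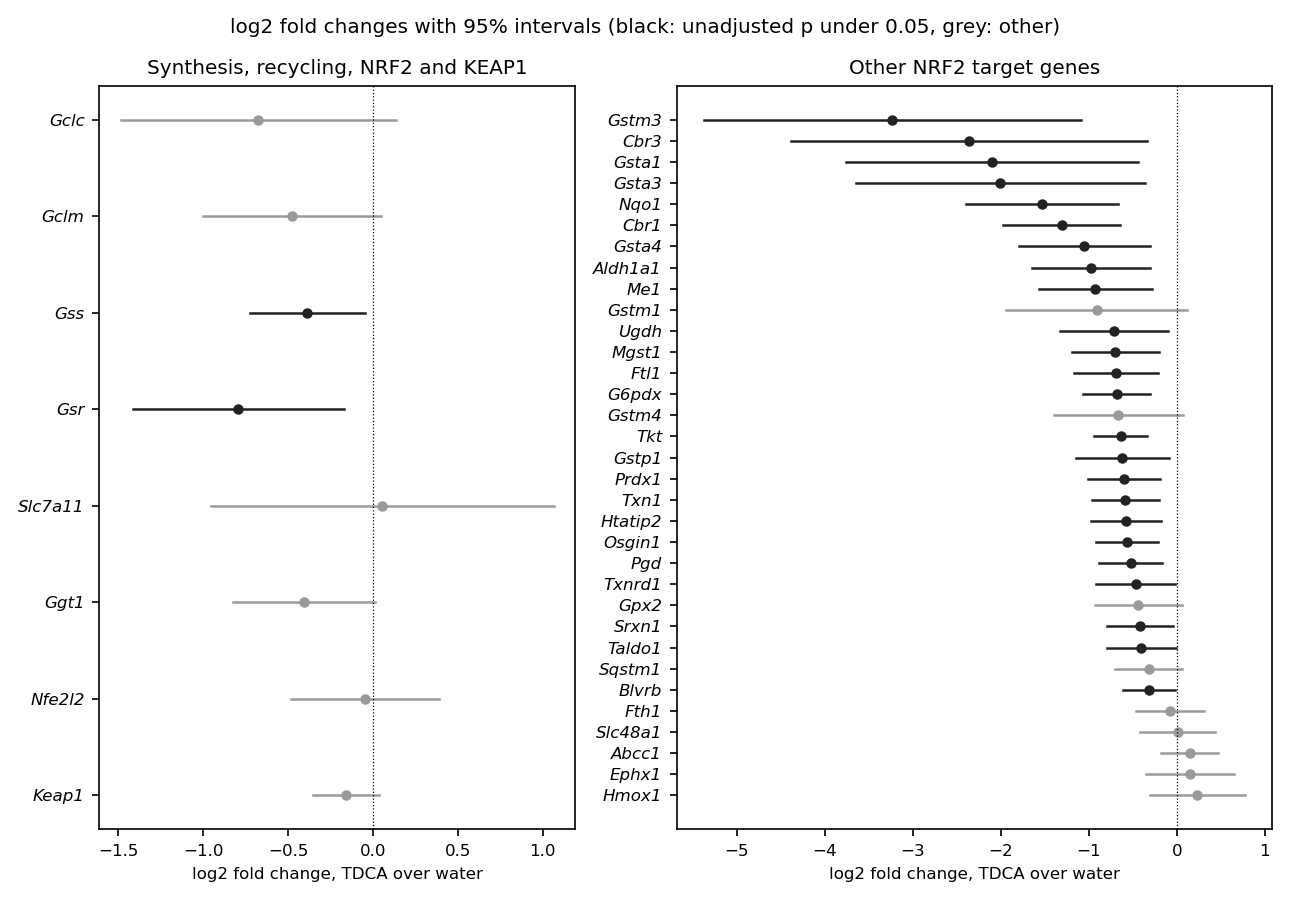
Log2 fold changes, TDCA over water, with 95% intervals from limma, for the 8 genes (left) and the 33 other NRF2 target genes (right, on a wider scale); black marks an unadjusted p under 0.05 and grey any other. Intervals lie below 0 for Gss and Gsr on the left, and for 24 genes on the right.

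Water 1 and water 4 were the highest mice for the target list, as they were for Gclc, Gclm and Gsr. Its mean relative log2 level was -0.43, -0.60, -0.27, -0.20 and -0.46 in TDCA 1 to 5, against 1.02, -0.03, -0.20, 0.78 and 0.39 in water 1 to 5. Water 1, 2, 4 and 5 were above every TDCA mouse, and water 3 lay within the range of the TDCA mice, just below TDCA 4. The smooth muscle markers ran at 0.35, 0.44, 0.03, 0.10 and 0.79 in TDCA 1 to 5, against -1.07, 0.41, -0.68, 0.10 and -0.46 in water 1 to 5. Water 1 had the lowest and TDCA 5 the highest smooth muscle level.

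Some marker genes of the cell types in the tissue also differed between the groups at an unadjusted p under 0.05, none past the adjusted p. Of 14 smooth muscle markers, all found in every library, 11 were higher in TDCA mice at an unadjusted p under 0.05, where 5.95% of all genes were, and their summed normalized counts were 181848 to 315757 in TDCA mice and 81778 to 237288 in water mice. Of 16 enterocyte markers 2 were lower, of 15 proliferation markers 6, of 11 Paneth cell markers 5, and of 8 goblet cell markers 0, where 5.01% of all genes were lower. For summed levels, the unadjusted two-sided exact permutation p was 0.0873 for smooth muscle, 0.111 for enterocyte and 0.0397 for proliferation markers. The same test gave 0.0635 for Paneth cell and 0.913 for goblet cell markers. Across genes, the Spearman correlation of a library's relative levels with transcript length was 0.08 ± 0.08 in TDCA mice and -0.10 ± 0.05 in water mice (SD, n = 5 each), with an exact permutation p of 0.0159, two-sided. The part of transcript length in the differences of the 8 genes was not tested, and of the marker lists only the smooth muscle list was used as a covariate. With the smooth muscle level as a covariate, 0 of the 8 genes and 3 of 33 NRF2 targets were lower at an unadjusted p under 0.05, where 1.98% of all genes were. The median log2 fold change of the targets was then -0.38, with 31 of 33 below 0. When water 1 and TDCA 5 were both left out, 0 of the 8 genes and 16 of 33 targets were lower, where 3.16% of all genes were. In these 2 fits Gsr had log2 fold changes of -0.36 and -0.48, and Gclc of -0.51 and -0.37.

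**Figure D4:**
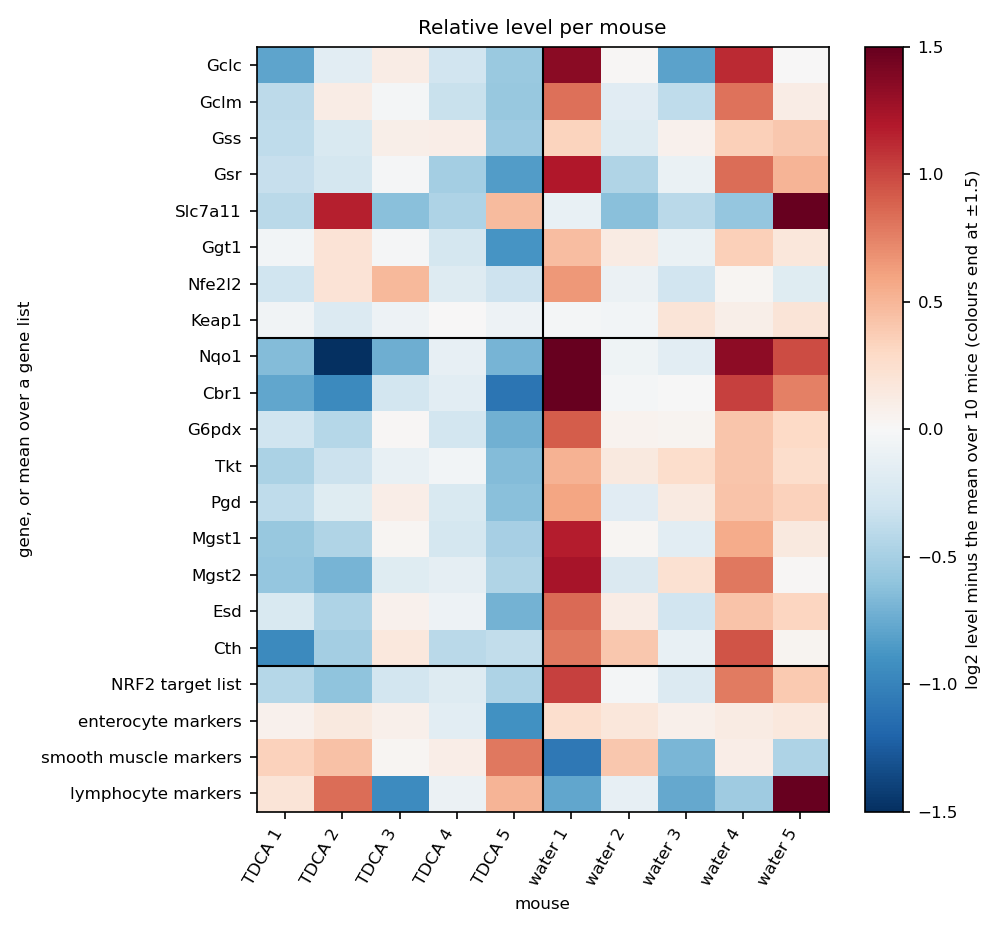
Log2 level minus the mean over 10 mice (colour, red above and blue below, ending at ±1.5) in each mouse, TDCA 1 to 5 at left and water 1 to 5 at right, for the 8 genes (top), other named genes (middle) and the means of the NRF2 target list and of 3 marker lists (bottom). Water 1 and water 4 are red for Gclc, Gclm, Gsr and the target list, and Slc7a11 shares its high mice with the lymphocyte markers.

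NADPH, which glutathione reductase consumes, comes largely from the pentose phosphate pathway. Of 17 genes of NADPH supply, 6 were lower at an unadjusted p under 0.05, where 5.01% of all genes were, and 0 were higher. The median log2 fold change was -0.18. In this list 5 genes, Tkt, G6pdx, Pgd, Me1 and Taldo1, were also in the target list. All 5 were among the 6 lower genes, so this count largely repeats that of the target list. Tkt, which encodes transketolase, had 5007, 5562, 6425, 6743 and 4405 normalized counts in TDCA 1 to 5, against 9973, 7661, 8316, 9241 and 8316 in water 1 to 5. The groups did not overlap, and the log2 fold change was -0.64 (SE 0.14; limma adjusted p = 0.448). G6pdx, the first enzyme of the pathway, also did not overlap, at 520 to 870 in TDCA mice and 883 to 1607 in water mice (log2 fold change -0.68, SE 0.18). Pgd, the next NADPH-forming enzyme, differed by a log2 fold change of -0.53 (SE 0.17).

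Of 13 genes of other enzymes that use glutathione, outside the peroxidases and soluble transferases, 13 had a log2 fold change below 0, as did 52.1% of all genes tested. At an unadjusted p under 0.05, 6 of the 13 were lower, where 5.01% of all genes were, with a median log2 fold change of -0.25. Mgst2, a membrane transferase, averaged 1482 ± 251 normalized counts in TDCA mice and 2780 ± 1201 in water mice (SD, n = 5 each; log2 fold change -0.82, SE 0.25). Mgst1 had a log2 fold change of -0.70 (SE 0.23) and Esd, which splits S-formylglutathione, one of -0.57 (SE 0.20). Against 6 of 13 with all mice, counts for this list were 3 without water 4 and 3 without TDCA 1. They were 3 with water 1 and TDCA 5 left out, and 0 under the smooth muscle covariate. The shares of all genes lower in these fits were 4.24%, 3.73%, 3.16% and 1.98%, in that order.

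Of 19 genes of cysteine and precursor supply tested, 1 was lower and 2 were higher at an unadjusted p under 0.05, with a median log2 fold change of -0.08. These counts are near the shares over all genes, 5.01% lower and 5.95% higher. Cth, which releases cysteine from cystathionine, had 518, 702, 1117, 760 and 779 normalized counts in TDCA 1 to 5, against 1739, 1332, 927, 1925 and 1029 in water 1 to 5. TDCA 3 lay among the water mice and the other 4 TDCA mice were below all of them, with a log2 fold change of -0.83 (SE 0.23; limma adjusted p = 0.448). Cbs, which makes cystathionine, was scarce, at 47.5 ± 20.0 in TDCA mice and 25.0 ± 5.83 in water mice (SD, n = 5 each; log2 fold change 0.84, SE 0.29). Glul, the glutamine synthetase gene, had a log2 fold change of 0.40 (SE 0.18).

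In the breakdown of glutathione, 1 of 12 genes tested was lower at an unadjusted p under 0.05 and 0 were higher, with a median log2 fold change of -0.22. This count is near the 5.01% of all genes that were lower. The gene was Ggact, which acts on gamma-glutamyl amines, at 707 ± 115 normalized counts in TDCA mice and 911 ± 131 in water mice (SD, n = 5 each). Dpep1, a dipeptidase that continues the work of gamma-glutamyltransferase at the cell surface, had a log2 fold change of -0.31 (SE 0.16), and Ggt5, a relative of Ggt1, one of 0.27 (SE 0.16). Chac1, a stress-induced enzyme that degrades glutathione inside cells, averaged 27.1 ± 16.3 in TDCA mice and 20.9 ± 14.2 in water mice (SD, n = 5 each).

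Among 22 partners and regulators of NRF2, 0 were lower and 1 was higher at an unadjusted p under 0.05, where 5.01% of all genes were lower and 5.95% higher, with a median log2 fold change of -0.09. The one higher was Chd6, a chromatin remodeller, at 1261 to 1565 normalized counts in TDCA mice and 1081 to 1227 in water mice, without overlap, where 0.577% of all genes were higher without overlap. Bach1, a repressor that competes with NRF2, averaged 6325 ± 2036 in TDCA mice and 6270 ± 1219 in water mice (SD, n = 5 each; log2 fold change -0.04, SE 0.23). Sqstm1, which encodes the KEAP1-binding protein p62, had a log2 fold change of -0.32 (SE 0.18), and Rbx1, a subunit of the ligase that KEAP1 serves, one of -0.15 (SE 0.10).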

How the data were processed

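RNA came from about 20 mg of frozen distal ileum per mouse and was made into libraries with the Zymo-Seq RiboFree kit, which removes ribosomal RNA, per the labels' protocols. The submitters' processing notes name the build GRCm39, DESeq2 1.28.0 and MultiQC 1.9. The sources used here give no aligner, counter, strand setting or annotation, so reads from a gene and an antisense partner cannot be told apart. The authors deposited normalized counts per gene, a signal made of read counts divided by a size factor. The authors' comparison table, per the file headers, gives a mean signal, log2 fold changes before and after shrinkage, a test score, and the p-value with its adjusted form.

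Genes with at least 10 normalized counts in at least 5 of 10 libraries were tested with limma-trend and robust moderation (limma 3.58.1, R 4.3.3), two-sided, on log2(normalized count + 1), with a Benjamini-Hochberg threshold of 0.05. Fold changes on that scale understate the change of low genes. Within a library 100% of values were whole multiples of the smallest one, within 1e-04 of a read, and the reads so recovered were tested with edgeR 4.0.16 (0 genes called), DESeq2 1.42.0 (25 called) and limma-voom. Reads that are PCR copies of 1 molecule would not be independent of each other. Exact permutations used 252 labelings (smallest p 0.00794), and correlations 100000 permutations.

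The 8 genes and all gene lists were chosen with earlier results of these data known. Named genes were the 8, the 3 with the smallest unadjusted p of each list, 7 fixed genes, and the 2 most like each of the 8. Exceptions named after their values were seen are Gstm3, Gsta1, Cbr3 and Prdx1. Lengths are those of the longest coding transcript in GENCODE M21 (GRCm38). Promoter sequences are from RefSeq (GRCm38.p6), so coordinates are given for them alone. Alternatives were pseudocounts of 0.5 and 8, no filter, a filter of 50, TMM and quantile normalization, no robust moderation, array weights, the other tools, a replicate block, each library left out, both end libraries left out, and the smooth muscle level as a covariate. Their use on the list counts and on genes outside the 8 was added after the data were seen. The limma, edgeR and DESeq2 tests were tested on simulated data first.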

Additional observations from a re-analysis of the deposited data

Results flagged for a closer look

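In each group of 5 mice, the highest or lowest value was set against the others by Dixon's ratio of its gap to the group's range, for 39 named genes (78 groups), and 4 values passed the 95% level. Chance passes about 1 in 20 such groups, so 4 is near the number that chance gives. Slc7a11 was 171 normalized counts in water 5, against 35.9 to 51.7 in the other 4 water mice (ratio 0.883). Nfe2l2 was 5020 in water 1, against 2627 to 3284 in the other 4 water mice (ratio 0.726). Cdo1, the cysteine dioxygenase gene of taurine synthesis, was 401 in TDCA 3, against 73.5 to 146 in the other 4 TDCA mice (ratio 0.779). Chd6 was 1565 in TDCA 5, against 1261 to 1324 in the other 4 TDCA mice (ratio 0.793). The 2 high water mice of Gclc, Gclm and Gsr lay too near each other for this ratio to pass.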

How the results depend on the processing

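The direction held under all 24 alternatives for Gclc (log2 fold change -0.96 to -0.37), Gclm (-0.63 to -0.25), Gss (-0.48 to -0.15), Gsr (-1.01 to -0.36), Ggt1 (-0.51 to -0.17) and Keap1 (-0.19 to -0.11), and none passed the adjusted threshold under any. For Slc7a11 it was -0.034 with quantile normalization, -0.31 with array weights, -0.078 with edgeR, -0.073 with DESeq2, -0.022 with limma-voom, -0.078 without both water 1 and TDCA 5, and -0.23 to 0.46 with 1 library left out. Nfe2l2 was 0.042 with quantile normalization, 0.18 without both libraries, 0.19 with the smooth muscle covariate, and -0.17 to 0.11 with 1 library left out. The number of genes called was 25 with DESeq2 and 0 with limma and edgeR. Of the 8 genes, 4 were under an unadjusted p of 0.05 with edgeR, 4 with DESeq2, 0 without both libraries, 0 with the covariate, and 1 to 5 with 1 library left out (1 without water 1, 4 or 5 or TDCA 1 or 5, and 5 without water 3), against 2. With the covariate 3 of 33 NRF2 targets, 1 of 17 NADPH genes and 0 of 13 glutathione-using enzymes were lower, and without both libraries 3 of these 13. Leaving 1 library out gave 18 to 24, 4 to 6 and 3 to 7 for these lists in turn. The share of all genes lower at that level was 4.66% with edgeR, 3.16% without both libraries and 1.98% with the covariate. With DESeq2 the share was 2.31% of unfiltered genes, scarce ones included, or 6.04% of those with an adjusted p in the authors' deposited table. In limma the share was 3.6% to 5.74% with 1 library left out, against 5.01% with all mice. Other genes turned round near 0: with the covariate Cdo1 (0.028), Pank2 (0.021), Slc3a2 (0.042), Bach1 (0.20) and Atf4 (0.055); without both libraries Nnt (0.035), Slc3a2 (0.025), Bach1 (0.27) and Atf4 (0.030). With array weights Nnt was 0.018 and Bach1 0.081, with quantile normalization Bach1 was 0.032 and Atf4 0.016, and Bach1 was 0.018 with edgeR and 0.013 with DESeq2. With 1 library left out, Nnt ran from -0.15 to 0.026, Bach1 from -0.17 to 0.18 and Atf4 from -0.097 to 0.021. Of the correlated pairs, 8 in number, 5 passed after centring, 2 of them (Nfe2l2 with Gclc and with Gclm) not among the 8, and 0 passed with 2 mice left out. Centring turned Gclm with Keap1 (-0.47), Gsr with Keap1 (-0.16), Ggt1 with Keap1 (-0.44), Slc7a11 with Ggt1 (0.0017) and Slc7a11 with Keap1 (0.031), and leaving out 2 mice turned Gclc with Slc7a11 (0.21), Gclm with Keap1 (-0.092), Ggt1 with Keap1 (-0.037) and Nfe2l2 with Nqo1 (-0.11). The causes were not tested. Slc7a11 did not reach the filter of 50, which gave it no value.

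Deviations of same-numbered mice correlated at -0.15 to 0.17, and the main fit did not pair the mice. These correlations cannot exclude a pairing. The replicate numbers follow the sample descriptions, and a pairing by the animal numbers in the titles was not examined. With the replicate number as a block, 0 genes were called and no adjusted call changed. At an unadjusted p under 0.05, 3.36% of all genes were lower in that fit. So were 2 of the 8 genes, 24 of 33 NRF2 targets, 4 of 17 NADPH genes and 4 of 13 glutathione-using enzymes. Depth limits the reading most for Chac1, Hmox1, Cbs, Nnt and Slc7a11, which are among the scarcest genes named.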

Other observations

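Cysteine that does not enter glutathione goes to taurine, coenzyme A and sulfide. Of 12 genes of these routes tested, 0 were lower and 0 higher at an unadjusted p under 0.05, where 5.01% of all genes were lower and 5.95% higher, with a median log2 fold change of -0.05. Sqor, which oxidizes sulfide in mitochondria, averaged 3164 ± 727 normalized counts in TDCA mice and 3437 ± 383 in water mice (SD, n = 5 each). Cdo1, which directs cysteine to taurine, averaged 169 ± 133 in TDCA mice and 206 ± 111 in water mice (SD, n = 5 each), and Pank2, the coenzyme A kinase gene, 823 ± 33.8 in TDCA mice and 860 ± 54.0 in water mice.

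Among 11 transporters of glutathione and its conjugates, 1 was lower at an unadjusted p under 0.05 and 0 were higher, near the 5.01% and 5.95% of all genes, with a median log2 fold change of -0.19. That gene was Slc25a11, a mitochondrial carrier, at 999 ± 121 normalized counts in TDCA mice and 1206 ± 110 in water mice (SD, n = 5 each; log2 fold change -0.27, SE 0.11). Slc25a10, another carrier, had a log2 fold change of -0.31 (SE 0.15), and Slc25a40, a carrier of glutathione into mitochondria, one of 0.32 (SE 0.15). Nnt, the mitochondrial transhydrogenase that supplies NADPH and is known to be disrupted in C57BL/6J mice, was scarce in both groups, at 55.2 ± 9.21 in TDCA mice and 58.3 ± 11.1 in water mice (SD, n = 5 each).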
